A study of Mus musculus with 6 samples.

Results

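The imprinted region of mouse chromosome 7 that corresponds to the human Prader-Willi and Angelman region was followed through 9 of the 60354 features counted in the brains of control and PLDP mice. The 9 genes were Ube3a, its long antisense transcript Snhg14, the gene model 9330162G02Rik that lies across the start of Ube3a on the opposite strand, Snrpn, Ndn, Magel2, Mkrn3, Peg12 and Atp10a. They were selected by name for their place in the region, and 9330162G02Rik was also selected on its difference between the diets in these same mice, so the diet values of all 9 are given as a description without a test. All 9 Ensembl identifiers were matched in GENCODE M21, and 8 of the 9 passed the filter on low counts. Peg12 did not.

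Both groups were male C57BL/6NCrSlc mice without any transgene, 16 weeks old when the diets began and kept on them for 16 weeks. Control mice (n = 3, mice 2, 5 and 10) ate a modified AIN-93M diet with calories matched to the other diet. PLDP mice (n = 3, mice 17, 22 and 26) ate a modified AIN-93M diet containing 20% PLDP, which is porcine liver digested with protease. The mice came from groups of 13 per diet that went through a series of behavioral tests, during which neither group was fed PLDP, before RNA was taken from the whole brain and polyadenylated RNA was sequenced. A whole brain mixes all its cell types, so fewer cells of a type and less RNA per cell cannot be told apart, and the counts do not separate the maternal from the paternal allele.

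In an imprinted gene, 1 parental copy is silenced by marks set in the germ line. In this region Snrpn, Snhg14, Ndn, Magel2, Mkrn3 and Peg12 are transcribed from the paternal chromosome, and an imprinting center at the Snrpn promoter controls them. Ube3a, which encodes a HECT ubiquitin ligase whose loss causes Angelman syndrome, is expressed from the maternal chromosome in neurons, where the paternal copy is silenced by transcription of Snhg14 through it from the opposite strand. Snhg14 also carries arrays of box C/D small nucleolar RNAs (snoRNAs) in its introns. Glia use both copies of Ube3a and have little of the antisense transcript.

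The sequences at which this pair of opposed transcripts begin are shown because the antisense gene model with the clearest difference between the diets covers one of them. Promoter windows from RefSeq (GRCm38.p6, 250 bases before to 50 after a start) were matched for 8 of the 9 genes, and 9330162G02Rik had none. Capitals mark the dinucleotide CG, which reads the same on both strands.
Ube3a, chr7:59228500-59228799, plus strand: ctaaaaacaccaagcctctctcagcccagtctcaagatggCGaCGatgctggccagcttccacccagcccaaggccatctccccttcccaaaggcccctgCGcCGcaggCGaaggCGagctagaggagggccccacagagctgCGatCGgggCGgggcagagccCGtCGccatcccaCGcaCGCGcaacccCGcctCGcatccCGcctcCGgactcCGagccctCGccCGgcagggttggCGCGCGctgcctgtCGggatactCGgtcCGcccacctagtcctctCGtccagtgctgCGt
Snhg14, chr7:60450128-60450427, minus strand: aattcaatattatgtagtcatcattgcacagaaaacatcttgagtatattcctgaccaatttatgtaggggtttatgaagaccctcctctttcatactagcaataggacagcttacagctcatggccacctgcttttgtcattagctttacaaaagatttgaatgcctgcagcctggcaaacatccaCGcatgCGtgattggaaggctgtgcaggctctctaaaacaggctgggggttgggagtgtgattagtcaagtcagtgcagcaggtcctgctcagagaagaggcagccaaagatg
The Ube3a window held 29 CG pairs, and 12.9% of the 32851 windows in the table held at least as many. The Snhg14 window held 2, a number reached by 85.9% of all windows, and RefSeq lists the identical window for an upstream start of Snrpn, so RefSeq begins these 2 transcripts at the same place. In GENCODE M21, from which the spans and lengths given here come, Snhg14 starts at 59975759 and Snrpn at 60140219 on the minus strand, so this window lies outside both of those models. The whole Ube3a window lies inside 9330162G02Rik, which is read from the other strand.

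Libraries held between 18797061 and 23938729 counts, and the 9 genes took between 0.0662% and 0.0761% of them. Over all 18580 features that passed the filter, edgeR's quasi-likelihood test called 1598 at an unadjusted p under 0.05, which is 8.6%, with 4.91% called higher in PLDP mice and 3.69% called lower, and 6 had an adjusted p under 0.05. The mice of the diets did not overlap in 14.2% of the features. Neuron markers (7 of 8 tested, 1 called lower, median log2 fold change -0.01) had a summed level of 5524 to 5673 CPM (counts scaled by library size) in control mice and 5535 to 5692 CPM in PLDP mice. Of 8 markers of brainstem and spinal cord, 7 were called lower, with a median log2 fold change of -0.78 and summed levels of 147.4 to 161.5 CPM in control mice and 81.2 to 116.4 CPM in PLDP mice. Of the other marker lists, astrocytes and microglia had 1 of 6 called lower each, and oligodendrocytes and choroid plexus 2 of 6 called lower each. Hypothalamus had 1 of 7 lower, endothelium 2 of 5 higher, olfactory bulb 1 of 4 higher, and cerebellar and blood markers none. Summed levels of control and PLDP mice did not overlap either for choroid plexus (747.5 to 803.2 and 586.8 to 744.5 CPM) or hypothalamus (57.5 to 59.9 and 48.5 to 55.1 CPM). Nor did they for microglia (259 to 272.8 and 248.5 to 258.5 CPM) or endothelium (168.5 to 169.4 and 174.2 to 183.9 CPM). They overlapped for astrocytes, oligodendrocytes, olfactory bulb, cerebellum and blood. The part of these differences in the results on the imprinted region was not tested.

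Of the 8 genes that passed the filter, 9330162G02Rik was called higher, none was called lower, and 9330162G02Rik was also the one whose mice did not overlap between the diets. Since the genes were chosen with this contrast known, nothing is read from that count against the backgrounds of 4.91%, 3.69% and 14.2%. All CPM values below are scaled by TMM factors, fold changes are PLDP over control on the log2 scale with their standard error (SE), and means are given with SD for n = 3 mice per diet.

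**Figure D1:**
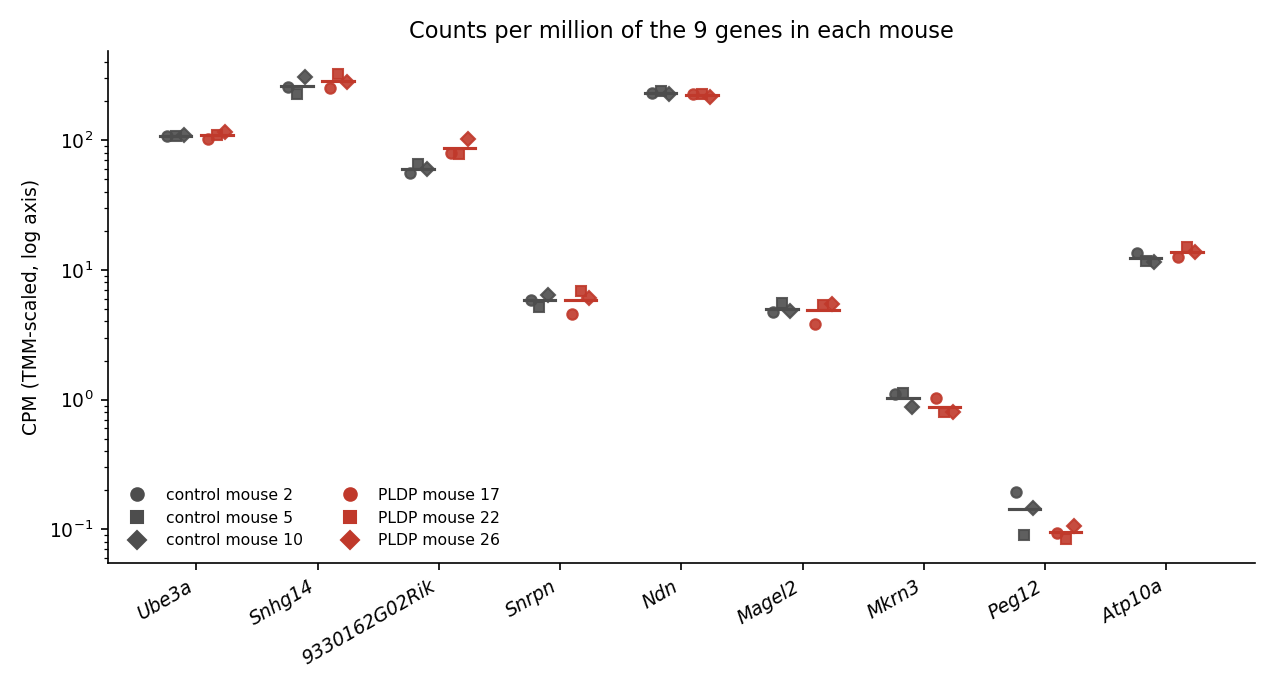
TMM-scaled CPM (log axis) of the 9 genes, with 1 point per mouse, the shape of the point naming the mouse and a bar at each diet's mean (3 control mice in grey, 3 PLDP mice in red). 9330162G02Rik is the gene whose points separate by diet, from 55.3 to 65.2 CPM in control mice and from 78.4 to 101.7 CPM in PLDP mice, while Peg12 lies at 4 counts or fewer in each mouse.

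Ube3a, the ubiquitin ligase itself, had the same mean level on both diets. Its levels were 106.8, 107.8 and 110.3 CPM in control mice 2, 5 and 10 and 102.1, 109.0 and 114.5 CPM in PLDP mice 17, 22 and 26. The PLDP mice lay on both sides of the control mice, so the groups overlapped. The means were 108.3 ± 1.81 CPM and 108.5 ± 6.23 CPM, and the log2 fold change was 0.00 (SE 0.05). Of the 20626 exon bases annotated for Ube3a, 5624 lie under exons of the opposite strand, 1803 under Snhg14 at its 3' end, 2025 under the model Gm44560 and 1796 under 9330162G02Rik at its start.

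Snhg14, the antisense transcript and snoRNA host, had the highest count of the region together with Ndn and varied more between mice of a diet than Ube3a did. Its levels were 258.0, 227.9 and 304.0 CPM in the control mice and 251.4, 323.2 and 278.8 CPM in the PLDP mice. PLDP mouse 22 was the highest and control mouse 5 the lowest, with the other mice interleaved. The means were 263.3 ± 38.3 CPM and 284.5 ± 36.2 CPM, and the log2 fold change of 0.11 (SE 0.09) was within the spread. It went to 0.01 when PLDP mouse 22 was left out and to 0.23 when control mouse 10 was left out. Snhg14 was not called with all mice and the filter, but passed the unadjusted threshold without the filter and without control mouse 10 or PLDP mouse 17, which is given as a description like the other diet values. PLDP mouse 22 also had the lowest level of the brainstem marker Slc6a5, the neuronal glycine transporter, at 22.4 CPM against 31.0 and 32.7 CPM in the other PLDP mice, and the part of this in the level of Snhg14 was not tested.

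9330162G02Rik is annotated as a transcript of the TEC class, unspliced models that await experimental proof, and no function is known for it. It spans 30.9 kb at chr7:59223847-59254788 on the minus strand, its nearest end is 53.1 kb past the annotated end of Snhg14, and it crosses the start of Ube3a. Its levels were 55.3, 65.2 and 59.6 CPM in the control mice and 79.04, 78.4 and 101.7 CPM in the PLDP mice. Each PLDP mouse was higher than each control mouse, and PLDP mouse 26 stood above the other PLDP mice. The means were 60.01 ± 4.93 CPM and 86.4 ± 13.2 CPM, a ratio of 1.44, or 1.31 without PLDP mouse 26, and the log2 fold change was 0.52 (SE 0.08). Depth was ample for this gene, with 1150 to 1902 counts in each mouse.

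The ratio of 9330162G02Rik to Ube3a within each mouse was 0.518, 0.604 and 0.540 in the control mice and 0.774, 0.720 and 0.888 in the PLDP mice. These did not overlap. Since Ube3a had the same mean level on both diets, the ratio repeats the separation of 9330162G02Rik itself and is not a second result. Against Snhg14, which is read from the same strand upstream of it, the ratios were 0.214, 0.286 and 0.196 in the control mice and 0.314, 0.243 and 0.365 in the PLDP mice. Those ranges overlapped, with control mouse 5 above PLDP mouse 22.

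Reads from opposite strands at Ube3a can be told apart only if strand was used in counting. The library kit marks strand, and the counting setting is not given in the sources used here. Among annotated genes of at least 300 exon bases, 62.8% of the 218 whose exons lie wholly under exons of the opposite strand had a count, close to the 59.7% of the 35737 genes under no other exon, whereas 21.1% of the 175 wholly under exons of the same strand had one. Gm44830, a plus-strand model of 584 bases in an intron of Ube3a, had 0 to 2 counts per mouse, at most 3.42 per kb. The longer minus-strand models Gm44560, Gm44562 and 9330162G02Rik had between 40 and 1902 counts, or 29.7 to 75.0 per kb. The minus-strand model Gm44559 had none. In 9330162G02Rik itself 29146 of the 30942 bases lie under no other exon.

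Other minus-strand models lie along the same path, and they were picked by position, from 30 kb before the start of Ube3a to its end, after their values had been seen. Coming from Snhg14, the next is Gm44560, with 5.82, 5.81 and 7.86 CPM in the control mice and 8.60, 7.002 and 7.96 CPM in the PLDP mice. These overlapped, with a log2 fold change of 0.27 (SE 0.13). Gm44559 was listed at 0 in all 6 mice. Gm44562 followed with 2.26, 2.45 and 1.94 CPM in the control mice and 3.81, 3.27 and 5.398 CPM in the PLDP mice, a log2 fold change of 0.89 (SE 0.20). Its groups did not overlap, its adjusted p in the edgeR fit was 0.147, and the unadjusted call was kept whichever mouse was left out. Beyond 9330162G02Rik, 104 kb past the end of Snhg14 and upstream of Ube3a, Gm44742 had 0.962, 0.907 and 0.922 CPM in the control mice and 1.26, 1.13 and 1.92 CPM in the PLDP mice. It had no more than 36 counts in any mouse, a log2 fold change of 0.60 (SE 0.27) and an adjusted p of 0.561, and its unadjusted call was lost when PLDP mouse 26 or any of the 3 control mice was left out, and with DESeq2 or limma voom. PLDP mouse 26 was the highest in Gm44562, 9330162G02Rik and Gm44742 alike, but not in Gm44560 or Snhg14.

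**Figure D2:**
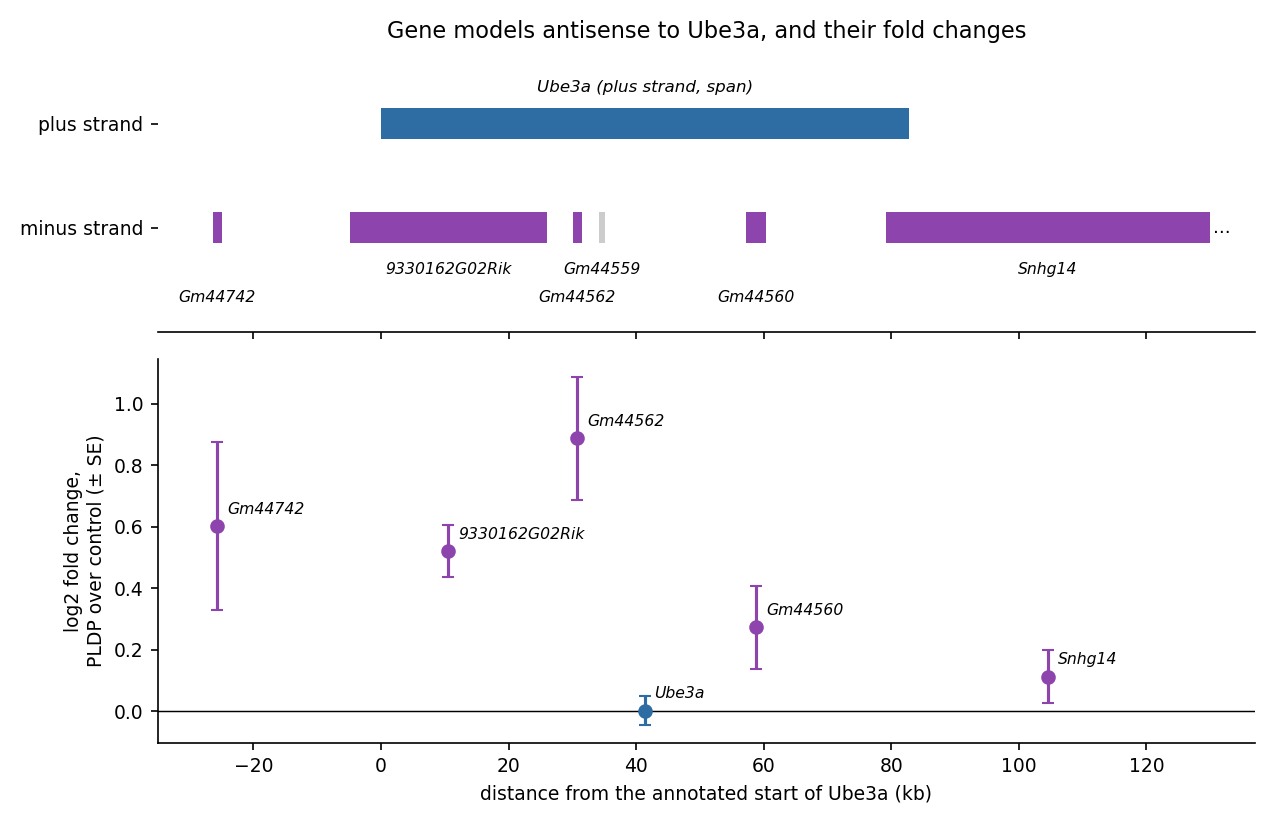
Upper panel, the spans of Ube3a (plus strand) and of the minus-strand gene models around it, by distance in kb from the annotated start of Ube3a (grey, listed at 0 and not tested; Snhg14 continues to the right). Lower panel, log2 fold change of PLDP over control mice with its SE at the middle of each span: Ube3a lies at 0.00, Snhg14 at 0.11, Gm44560 at 0.27, and the 3 models farthest from Snhg14 between 0.52 and 0.89.

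Per kb of exon, in counts not scaled for depth, Gm44562 and 9330162G02Rik were covered at similar density in each control mouse, 34.9 and 37.2, 40.1 and 46.4, and 29.7 and 39.7 counts per kb in mice 2, 5 and 10. Gm44560, whose CPM overlapped between the diets, was as dense, at 38.8, 41.1 and 52.0 counts per kb in mice 2, 5 and 10. Gm44742 was at 13.5 to 14.2 counts per kb in the same mice. The model upstream of Ube3a was thus covered less densely than Gm44560, Gm44562 and 9330162G02Rik in the control mice. Gm44559, listed at 0, had no coverage.

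Some gene models of the same class and some nuclear RNAs were also higher in PLDP mice, and their part in the result was not tested. Of 379 TEC models that passed the filter, 43 were called higher and 3 lower, beside 4.91% and 3.69% over all features, with a median log2 fold change of 0.14 against -0.00062 over all features. The 184 that lie within or across a protein-coding gene on its own strand had a median of 0.25, with 32 called higher and none lower (22 and none without PLDP mouse 26). Their summed level was 212.8, 222.3 and 229.4 CPM in the control mice and 245.2, 252.9 and 282.0 CPM in the PLDP mice. The mice of the diets did not overlap, and PLDP mouse 26 was again the highest. The 60 TEC models antisense to a protein-coding gene, those at Ube3a left out, had a median of 0.01, with 1 called higher and 1 lower. Their summed levels of 148.9 to 154.6 CPM and 146.3 to 156.0 CPM overlapped. The 127 TEC models outside protein-coding genes had a median of 0.05, with 7 called higher and 2 lower. Their summed levels were 287.9 to 294.6 CPM in control mice and 294.8 to 314.1 CPM in PLDP mice, which narrowly did not overlap.

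Among other noncoding RNAs kept in the nucleus, Kcnq1ot1, the imprinted antisense transcript of another domain of chromosome 7, had 31.0, 29.9 and 34.1 CPM in the control mice and 39.8, 42.5 and 49.6 CPM in the PLDP mice. Its log2 fold change was 0.47 (SE 0.08, adjusted p = 0.0369 in the edgeR fit), and each PLDP mouse lay above the control mice. Malat1, a component of nuclear speckles, had a log2 fold change of 0.29 (SE 0.04, adjusted p = 0.0318, same test). The ratio of 9330162G02Rik to Kcnq1ot1 was 1.78, 2.18 and 1.75 in the control mice and 1.98, 1.85 and 2.05 in the PLDP mice, so relative to Kcnq1ot1 the diets overlapped. Relative to Malat1 the ratios were 0.0531, 0.0640 and 0.0536 in the control mice and 0.0645, 0.0589 and 0.0770 in the PLDP mice, which overlapped too. Kcnq1ot1 and Malat1 were already known to be higher in PLDP mice, which draws such ratios together, so nothing is read from the overlap. Relative to the summed sense-strand TEC models the ratios were 0.260, 0.293 and 0.260 in the control mice and 0.322, 0.310 and 0.361 in the PLDP mice, and the diets did not overlap.

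**Figure D3:**
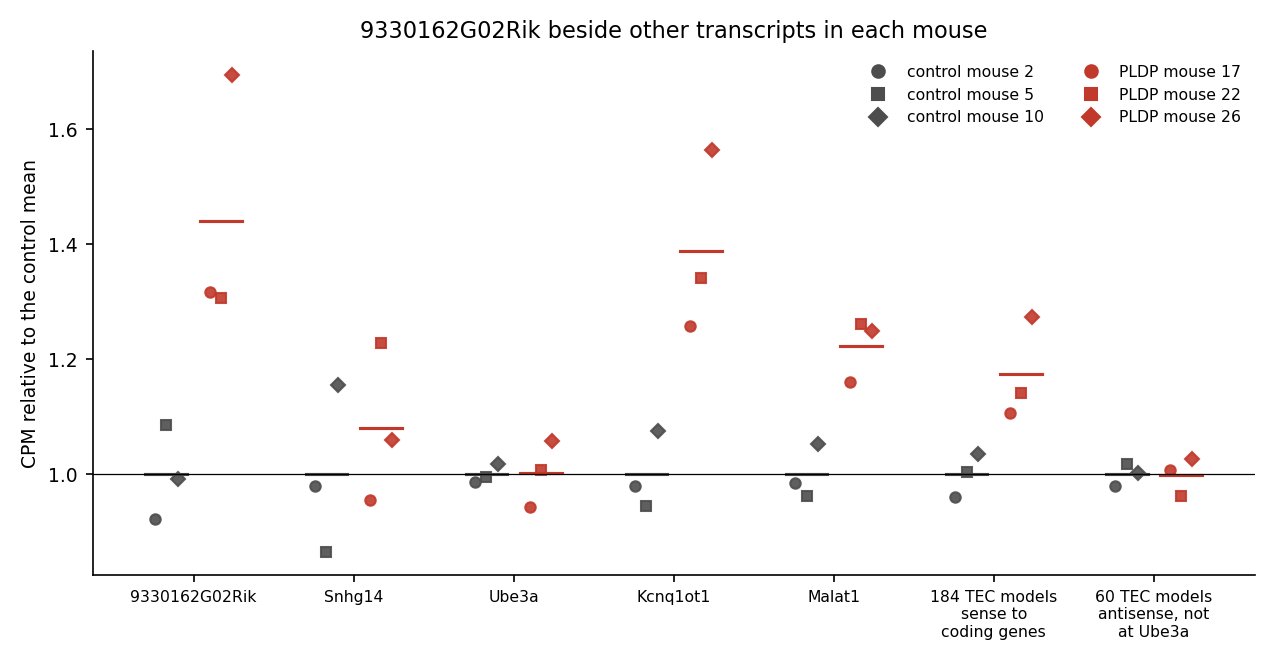
CPM of each transcript, or summed CPM of a class of TEC gene models, in each mouse divided by the control mean, with bars at each diet's mean (3 control mice in grey, 3 PLDP mice in red). 9330162G02Rik has a PLDP mean of 1.44 times the control mean, Kcnq1ot1, Malat1 and the sense-strand TEC models also lie above the control mice, and Ube3a, Snhg14 and the remaining antisense TEC models overlap.

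Snrpn encodes SmN, the neuronal form of a core protein of spliceosomal particles. Its row held 98 to 165 counts per mouse, with 5.82, 5.22 and 6.45 CPM in the control mice and 4.56, 6.92 and 6.04 CPM in the PLDP mice. The groups overlapped, with means of 5.83 ± 0.617 CPM and 5.84 ± 1.19 CPM and a log2 fold change of 0.01 (SE 0.15). The row is not a full measure of the messenger. Snurf and Gm38393, a longer model over Snurf and part of Snrpn, were listed at 0 in all 6 mice, and 589 of the 2159 exon bases and 36.8% of the coding bases of Snrpn are shared with genes of the same strand or lie under these models. The annotation used in counting is not given in the sources used here.

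In each diet the mice fell in the same order for Snrpn as for Snhg14, mouse 5 below 2 below 10 in the control group and mouse 17 below 26 below 22 in the PLDP group. The same order was seen for the snoRNA copy Gm25597 and for the noncoding genes A330076H08Rik and Gm9801 between Snrpn and Ndn, named after their values were seen. The other tested noncoding genes of that stretch differed in order from Snhg14 in 1 diet or both. These were A230057D06Rik in the PLDP group, B230209E15Rik in the control group and A230006K03Rik in both. All other tested snoRNA copies inside Snhg14, among them Snord116l7, also differed from this order in 1 diet or both. Atp10a shared this order in the PLDP group but not in the control group, and Ube3a, 9330162G02Rik, Ndn, Magel2 and Mkrn3 had another order in both groups. This is a description of 6 mice, without a test.

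The snoRNA arrays inside Snhg14 are annotated as 134 copies of about 79 bases and 70 copies of about 94 bases, of which 17 are named Snord116l. The sequence that occurs most often in each array is shown because identical copies limit what a single row can measure. Both come from the GENCODE M21 transcripts on GRCm38, and capitals mark the first TGATGA and the last CTGA, the letters of the C and D boxes that bind the snoRNA proteins.
Most frequent copy of about 79 bases: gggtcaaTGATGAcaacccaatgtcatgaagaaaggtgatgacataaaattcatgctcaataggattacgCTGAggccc
Most frequent copy of about 94 bases: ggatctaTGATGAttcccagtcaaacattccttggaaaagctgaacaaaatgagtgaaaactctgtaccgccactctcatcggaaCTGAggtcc
Both motifs occurred, on the strand of the snoRNA, in 133 of the 134 shorter and 66 of the 70 longer copies. The first sequence was identical in 33 copies and the second in 30. All copies are shorter than the 150-base reads, and the libraries were made from polyadenylated RNA, so counts in these rows are from fragments overlapping a copy and not a measure of mature snoRNA.

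Copies of 94 bases had between 143 and 363 counts per mouse in sum, or 11.4, 6.49 and 10.3 CPM in the control mice and 8.79, 15.2 and 10.5 CPM in the PLDP mice, which overlapped. Copies of 79 bases summed to 13.1, 10.0 and 11.2 CPM and to 11.8, 15.01 and 8.87 CPM, which overlapped too. Single copies were less even. Gm25597 was called higher, with a log2 fold change of 0.63 (SE 0.20, adjusted p = 0.350, edgeR's quasi-likelihood test), but its mice overlapped and the call was lost without PLDP mouse 22 and with DESeq2. Snord116l7 was called lower, with a log2 fold change of -1.07 (SE 0.48, adjusted p = 0.545, same test), from 107, 19 and 33 counts in the control mice and 19, 23 and 34 counts in the PLDP mice, and without control mouse 2 the fold change was -0.03. That call was lost without control mouse 2, PLDP mouse 17 or PLDP mouse 22, and with DESeq2 or limma voom. Gm25597 and Snord116l7 both have the most frequent 94-base sequence without a mismatch, and only the bases beside a copy can tell their fragments apart.

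Ndn and Magel2 encode MAGE proteins, necdin being a growth suppressor abundant in postmitotic neurons and MAGEL2 a partner of ubiquitin ligases in endosomal sorting. Ndn had 229.3, 239.7 and 227.0 CPM in the control mice and 228.1, 225.1 and 215.9 CPM in the PLDP mice. PLDP mouse 26 was the lowest and the groups overlapped, with means of 232.0 ± 6.75 CPM and 223.0 ± 6.34 CPM and a log2 fold change of -0.06 (SE 0.04). Magel2 had 4.76, 5.54 and 4.80 CPM in the control mice and 3.81, 5.33 and 5.45 CPM in the PLDP mice. It overlapped as well, with a log2 fold change of -0.05 (SE 0.15) that became 0.10 without PLDP mouse 17, the lowest mouse.

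Mkrn3, a makorin RING ligase known for restraining the onset of puberty, and Peg12, a FRAT family gene related to regulators of GSK3, were the least abundant. Mkrn3 had 23, 25 and 18 counts in the control mice and 22, 19 and 15 counts in the PLDP mice. With 1.04 ± 0.143 CPM and 0.874 ± 0.129 CPM its log2 fold change of -0.25 had an SE of 0.28, so a difference of this size was not detectable at this depth. Peg12 had 4, 2 and 3 counts in the control mice and 2, 2 and 2 counts in the PLDP mice, and no fold is given.

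Atp10a, a phospholipid flippase and the neighbor of Ube3a, had 13.5, 11.8 and 11.5 CPM in the control mice and 12.6, 15.1 and 13.7 CPM in the PLDP mice. Control mouse 2 lay among the PLDP mice, so the groups overlapped. The means were 12.2 ± 1.07 CPM and 13.8 ± 1.25 CPM and the log2 fold change was 0.17 (SE 0.10), which was 0.10 with PLDP mouse 22 left out and 0.24 with control mouse 2 left out. It passed the unadjusted threshold without control mouse 2 or PLDP mouse 17, again as a description. Atp10a is also expressed in endothelium. Of 5 endothelial markers Pecam1 and Flt1 were called higher in PLDP mice, Flt1 not without control mouse 5, beside 4.91% of all features. The summed markers were at 168.5 to 169.4 CPM in control mice and 174.2 to 183.9 CPM in PLDP mice. The part of this in the level of Atp10a was not tested.

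**Figure D4:**
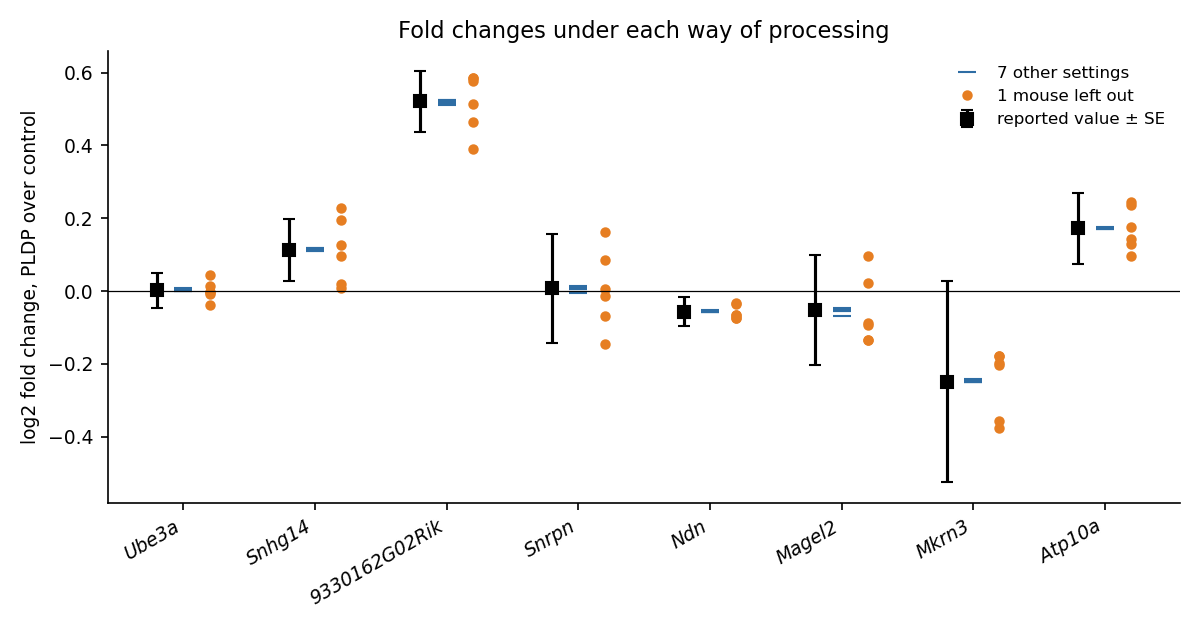
Log2 fold change of PLDP over control mice for the 8 genes that passed the filter: the reported value with its SE (black), the value under 7 other settings (blue dashes) and the values with 1 mouse left out (orange). 9330162G02Rik stays between 0.39 and 0.59, and the values of Snrpn, Magel2 and Ube3a fall on both sides of 0 when a mouse is left out.

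Levels were compared between genes as CPM per kb of exon, over all 6 mice. Ndn was the highest at 61.6, followed by Snhg14 at 10.5 and Ube3a at 5.26 CPM per kb, and the ranges of these 3 over mice did not overlap. Snrpn at 2.70, 9330162G02Rik at 2.37 and Atp10a at 2.33 CPM per kb came next, and neighbors in this order overlapped. The place of 9330162G02Rik differed by diet, with means of 1.94 CPM per kb in control mice, below Atp10a at 2.19, and 2.79 in PLDP mice, above Snrpn at 2.70. Magel2 at 1.07, Mkrn3 at 0.375 and Peg12 at 0.045 CPM per kb followed, each below the whole range of the gene before. Exon length weighs on this order, since Ube3a has 20626 annotated exon bases over all its isoforms, Ndn has 3694 in a single exon, and 9330162G02Rik counts its whole span as exon. The place of Snrpn rests on a row that is not a full measure of its messenger.

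Between Atp10a and Peg12, a stretch of 3.81 Mb, 278 annotated genes were listed, 107 had a count in some mouse and 29 passed the filter. Besides the 8 genes above, 21 were tested, with 3 called higher (Gm44742, Gm44562 and Gm25597) and 1 lower (Snord116l7), beside 4.91% and 3.69% of all features. Noncoding genes between Snrpn and Ndn had log2 fold changes of 0.00 (SE 0.12) for A230006K03Rik, -0.06 (SE 0.06) for B230209E15Rik, 0.04 (SE 0.05) for A230057D06Rik, -0.08 (SE 0.18) for A330076H08Rik and 0.27 (SE 0.21) for Gm9801. Their mice overlapped between the diets in each case.

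Biallelic neighbors include the GABA-A receptor subunit genes Gabra5 and Gabrg3 and the ubiquitin ligase gene Herc2, all on the side of Atp10a. Of 15 neighbors on either side of the region 14 were tested, with 1 called higher and 2 lower, beside 4.91% and 3.69% of all features. Their median log2 fold change was -0.06, and it was 0.018 without PLDP mouse 17. Gabra5 had a log2 fold change of -0.13 (SE 0.06, adjusted p = 0.517, edgeR's quasi-likelihood test), the magnesium transporter gene Nipa1 one of -0.12 (SE 0.05, adjusted p = 0.561), and the transcription factor gene Klf13 one of 0.14 (SE 0.04, adjusted p = 0.326). The call of Klf13 was kept under all 7 other settings and with each mouse left out, whereas that of Gabra5 was lost with DESeq2 and in 3 of 6 fits without a mouse, and that of Nipa1 with DESeq2, without a filter and in 4 of 6 such fits. Gabra5 is on a list of genes that the study drew from these samples, so its direction is not independent evidence. Herc2 with 0.00 (SE 0.05) and Cyfip1 with 0.01 (SE 0.05) overlapped between the diets.

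Genes that share a family or a partner with the region's proteins were read from lists, and none of their adjusted p-values in edgeR's quasi-likelihood test passed 0.05. Over all features 4.91% were called higher and 3.69% lower. None of 12 closest paralogs was called, with a median log2 fold change of 0.01, among them Ube3b at 0.03 (SE 0.04), Ube3c at 0.00 (SE 0.05) and Maged1 at 0.03 (SE 0.03). Snrpb, the ubiquitous paralog of Snrpn, had -0.10 (SE 0.05), with 61.3 to 63.8 CPM in the PLDP mice, all below the 65.4 to 69.0 CPM of the control mice, and an unadjusted p of 0.0502. Of 26 HECT ligases and E2 partners of UBE3A, 1 was called, Nedd4l at 0.11 (SE 0.04), and of 7 Sm core proteins none was. The 11 partners of MAGEL2 were Trim27, Usp7 and members of the retromer and WASH complexes. Of these, 2 were called lower, the retromer genes Vps35 at -0.12 (SE 0.04) and Vps29 at -0.11 (SE 0.04). Of 16 imprint maintenance and topoisomerase genes, 2 were called higher, Top1, whose inhibition is known to unsilence paternal Ube3a, at 0.13 (SE 0.05) and Top3b at 0.13 (SE 0.06). Both calls were lost without control mouse 2, control mouse 5 or PLDP mouse 22, that of Top1 also without PLDP mouse 26 and that of Top3b also with DESeq2, and the mice overlapped for Top1. The call of Nedd4l was lost without control mouse 2 or PLDP mouse 26, that of Vps35 without control mouse 5, and that of Vps29 without control mouse 2, control mouse 10 or PLDP mouse 26.

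Imprinted genes elsewhere in the genome gave 3 called higher and 1 lower of 32 tested, beside 4.91% and 3.69% of all features, a median log2 fold change of 0.01, and 1 adjusted p under 0.05, that of Kcnq1ot1. The 1 called lower, named outside the naming rule, was the cell cycle inhibitor gene Cdkn1c at -0.25 (SE 0.09), whose call was lost without control mouse 5 or PLDP mouse 22. Beside Kcnq1ot1, Mirg and Meg3, noncoding transcripts of the Dlk1 domain, were called higher, at 0.34 (SE 0.07) and 0.15 (SE 0.04). Both were higher in every PLDP mouse than in any control mouse. Their adjusted p-values were 0.0785 and 0.248 in edgeR's quasi-likelihood test. Rian, a noncoding transcript of the same domain, was not called, at 0.07 (SE 0.045), and its mice overlapped between the diets. Of 13 nuclear or abundant long noncoding RNAs tested, 5 were called higher, beside 4.91% of all features, and none lower, with a median of 0.08 and 2 adjusted p-values under 0.05, those of Malat1 and Kcnq1ot1. The other called ones were Mirg, Meg3 and, named outside the naming rule, Snhg11 at 0.08 (SE 0.04), whose call was lost with DESeq2, with library size alone and without control mouse 2, control mouse 5, PLDP mouse 22 or PLDP mouse 26. Neat1, the scaffold of nuclear paraspeckles, had a log2 fold change of -0.02 (SE 0.04).

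Over the 6 mice, among 10925 other features with a mean of at least 10 CPM, the levels most like those of Ube3a on the log2 scale were of Slc35d1, Akap6 and Gsk3b, each with a Pearson r of 0.99, and 164 features had an r over 0.9. For Snhg14 they were Parp4 with 0.99, G3bp1 with 0.986 and Elfn1 with 0.982, and 136 features had an r over 0.9. With 6 points that share library and scaling, and this many features to choose from, the values are given as a description only.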

How the data were processed

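Whole-brain RNA-seq was available for 3 control and 3 PLDP mice, each a separate animal. For each mouse the authors deposited a table of raw counts, whole numbers for each feature. The submitters' processing notes name cutadapt 2.9, HISAT2 2.2.0, featureCounts 2.6.0 and DESeq2 1.6.3, with the builds GRCm38 and GRCh38 and no role for each. Strand and multi-mapping settings are not given in the sources used here. Each file lists 60354 features, of which 54777 identifiers matched GENCODE M21 (GRCm38) and 5320 carry only a number and no Ensembl name, which cannot be placed and were kept in the test.

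The test used edgeR 4.0.16 (R 4.3.3): filterByExpr by diet (minimum count 10, minimum total 15), TMM, glmQLFit and glmQLFTest with diet as the term, over all features. Called means an unadjusted p under 0.05, the threshold of the study, with Benjamini-Hochberg values over 18580 features beside it. No p is given for the 9 genes. The genes, lists and naming rule were chosen with earlier results of these data known. The rule names all 9 genes, tested neighbors and close paralogs, up to 3 called genes per list and the 3 features most like Ube3a and Snhg14 (log2 of CPM plus 0.5). Paralogs and neighbors outside the called ones are given as examples, and marker lists as counts of calls, with summed CPM where the diets did not overlap and for neurons. TEC and snoRNA classes, antisense models and ratios were added after values were seen. Alternatives were no filter, at least 10 counts in every mouse, other scaling, DESeq2 1.42.0, limma 3.58.1 (voom) and leaving out each mouse. The test was checked on simulated counts. Totals of 18797061 to 23938729 counts limit genes with few counts. Tables and plots used Python 3.11.15, pandas 2.3.3 and matplotlib 3.10.9.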

Additional observations from a re-analysis of the deposited data

How the results depend on the processing

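The log2 fold changes of the 8 genes moved by less than the SD between mice under all 7 other settings and with each mouse left out. As a description, the unadjusted call was gained by Snhg14 in 1 of these settings and 2 fits without a mouse, and by Atp10a in 2 fits without a mouse. Leaving out 1 mouse gave 0.39 to 0.585 for 9330162G02Rik, -0.038 to 0.044 for Ube3a, 0.008 to 0.228 for Snhg14, -0.146 to 0.161 for Snrpn, -0.073 to -0.033 for Ndn, -0.135 to 0.095 for Magel2, -0.377 to -0.179 for Mkrn3 and 0.097 to 0.244 for Atp10a. Over all features the calls depended on the tool: DESeq2 called 564 higher and 362 lower, no filter gave 1314 higher and 1046 lower, and leaving out a mouse gave 640 to 1293 higher and 493 to 1072 lower. With DESeq2 1 neighbor and 1 imprint maintenance or topoisomerase gene were called. With library size alone, with relative log expression factors or with a floor of 10 counts per mouse, 1 close paralog and 1 Sm core protein were called. Snrpb is on both of these lists, so the 2 counts can be of the same gene. Leaving out a mouse gave 1 to 3 called neighbors, 0 to 3 paralogs, 0 to 4 HECT ligases and E2 partners, 0 to 2 Sm core proteins, 1 to 2 partners of MAGEL2, 0 to 2 imprint maintenance or topoisomerase genes, 4 to 7 other imprinted genes and 4 to 6 long noncoding RNAs. The cause was not tested. Depth limits Mkrn3 and Peg12. No paired analysis was possible because the diets share no mouse number.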
